A study of Mus musculus with 6 samples.

Results

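Genes of translation and the ribosome were examined for alternative splicing in primary mouse medullary thymic epithelial cells (mTECs) after knockdown of Raver2 or Setd2. The members were the genes listed in all 6 libraries whose symbol starts with Rpl, Rps, Mrpl, Mrps, Eif or Eef, or ends in ars or ars2, the endings of tRNA synthetase symbols. This spelling rule chose 33 genes of the 2689 that were listed in every library, and they held 59 of the 4658 splicing events that could be matched across the libraries. Each event was measured by its inclusion frequency, a fraction from 0 to 1. At 0 the form counted as included is never used, and at 1 it is always used. Which form that is, a whole exon or another splice choice, is not given.

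The 3 groups of mTECs each had 2 libraries: Raver2 knockdown (hairpins sh1 and sh2), Setd2 knockdown (hairpins sh1 and sh2) and a control (Ctr) in which the hairpin targets bacterial LacZ. Raver2 is an RNA-binding partner of the polypyrimidine tract-binding protein, and Setd2 is the histone methyltransferase that marks the bodies of transcribed genes. All groups shared the same treatment: sorted mTECs were seeded on a fibrin gel holding human dermal fibroblasts, infected with a lentivirus that also expresses GFP, and re-sorted 5 days later as viable cells positive for MHC class II and GFP. The knockdowns are thus pools of infected cells, and each hairpin was read in a single library. Neither the age nor the strain of the mice is given in the labels, nor whether libraries of a group came from separate cultures, so p-values reflect the spread among these 6 libraries alone, which may be technical for Ctr and holds any difference of hairpin for the knockdowns.

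The libraries listed 4777 to 4949 events each. The files hold fractions without read counts, so the depth behind each value is unknown. No event of Raver2 or Setd2 was listed, and a fraction carries no expression level, so neither knockdown could be checked. Events were listed for 2 of 12 thymic epithelial markers (Aire and Cd74), 1 of 10 fibroblast markers (Postn) and 3 of 10 leukocyte markers (Ptprc, Cd8a and Lck), which gives no measure of how many such cells were present. Each event is known by its gene and its order within the gene only, so which exon or splice site it describes is not known here.

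Protein synthesis starts when initiation factors bring the small ribosomal subunit and the initiator tRNA to a messenger RNA, proceeds as elongation factors deliver aminoacyl-tRNAs made by the tRNA synthetases, and runs on ribosomes built of ribosomal RNA and ribosomal proteins. Mitochondria keep a separate set of ribosomal proteins and synthetases. Many translation genes carry alternative exons that bring in an early stop codon, and such transcripts can be degraded by nonsense-mediated decay, a means by which several of these genes set their own abundance.

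Members were classed by symbol and not by function. An Eif symbol was held by 10 genes with 19 events and an Eef symbol by 1 gene with 2 events. There were 4 Rpl genes with 8 events, 4 Rps with 5, 1 Mrpl with 2 and 4 Mrps with 10. The tRNA synthetase endings covered 9 genes with 13 events. The Rps symbol Rps6ka1 names a kinase rather than a ribosomal protein. Among the Eif symbols, Eif2ak4 names a kinase that senses amino acid starvation and Eif4enif1 a transporter and repressor of the cap-binding protein eIF4E. A single event was listed for 20 of the genes, and Mrps23 had the most, with 6.

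One member gene carried the only calls. Event 4 of Eif4a2, which encodes an RNA helicase that unwinds messenger RNA leaders as part of the cap-binding complex, rose in both knockdowns. Its inclusion was 0.871 and 0.837 with the Raver2 hairpins and 0.849 and 0.841 with the Setd2 hairpins, against 0.557 and 0.590 in Ctr. All 4 knockdown libraries lay above both Ctr libraries, and the groups were far apart relative to the gaps within them. The change was 0.280 ± 0.0217 under Raver2 knockdown relative to Ctr (SE; limma over all events, adjusted p = 0.0219) and 0.272 ± 0.0217 for Setd2 knockdown against Ctr (limma, adjusted p = 0.0254). The 2 comparisons share the Ctr libraries. Between the knockdowns, the difference of Raver2 minus Setd2 was 0.00834, with a 95% interval from -0.0536 to 0.0703 (limma).

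These calls depended on the libraries that entered the fit. In both comparisons with Ctr, event 4 was no longer called (limma, adjusted p under 0.05) once any knockdown library, of either target, was left out. It stayed called in both without either Ctr library. Each such fit leaves a single library in a group, and that group then adds nothing to the estimated spread. Whether the event is called in such a fit is therefore not on the same footing as in the main fit. Over all fits that left out a library, the change ranged from 0.263 to 0.297 for Raver2 knockdown against Ctr. For Setd2 knockdown against Ctr it ranged from 0.255 to 0.289.

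The other Eif4a2 events differed in how they were placed. Event 3 had fractions of 0.473 and 0.514 under Raver2 knockdown and 0.467 and 0.468 under Setd2 knockdown, against 0.259 and 0.288 in Ctr. Event 1 lay the other way, at 0.133 and 0.206 under Raver2 knockdown and 0.155 and 0.166 under Setd2 knockdown, against 0.278 and 0.280 in Ctr. Neither passed: the changes of event 3 were 0.220 ± 0.0493 and 0.194 ± 0.0493 (SE; limma, adjusted p = 0.228 and 0.266 for Raver2 and Setd2 knockdown against Ctr), and those of event 1 were -0.109 ± 0.0312 and -0.119 ± 0.0312 (adjusted p = 0.327 and 0.282). For both events every knockdown library nevertheless lay on the same side of both Ctr libraries. Event 2 of the knockdowns overlapped with Ctr, with 0.660 and 0.675 under Raver2 knockdown, 0.678 and 0.744 under Setd2 knockdown, against 0.702 and 0.671 in Ctr, and its changes of -0.0194 ± 0.0330 and 0.0245 ± 0.0330 did not pass (SE; limma, adjusted p = 0.922 and 0.855). The plot of the Eif4a2 fractions shows events 1, 3 and 4 apart from Ctr and event 2 level with it.

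**Figure D1:**
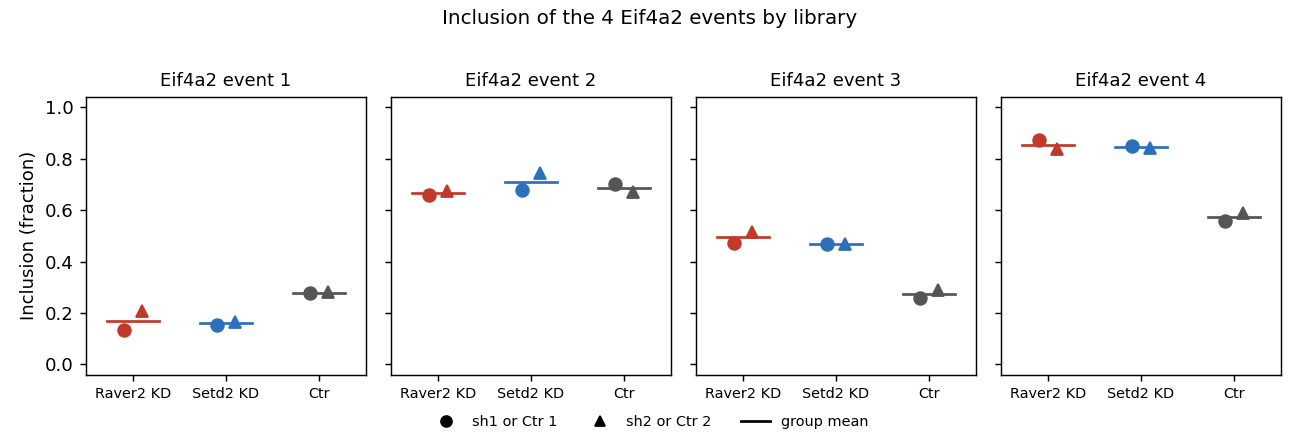
Inclusion fraction (vertical axis, 0 to 1) of the 4 Eif4a2 events in each library, for Raver2 knockdown, Setd2 knockdown and Ctr; circles are sh1 or Ctr 1, triangles sh2 or Ctr 2, and lines the group means of 2 libraries. Event 4 lies between 0.837 and 0.871 in the knockdown libraries, above 0.557 and 0.590 in Ctr.

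Eif4a2 lies on the plus strand of mouse chromosome 16 (chr16:23107444-23114136, mm10, GENCODE M21), where the annotation holds 25 transcripts. Of these, 6 are protein coding, 3 are targets of nonsense-mediated decay, 15 retain an intron and 1 is another processed transcript. Exons that some transcripts include whole and others skip were found at 2 places, and they are shown because they are the annotated cassette exons of the gene whose inclusion changed; neither is tied to a numbered event. The first, at chr16:23109120-23109259, is coding and has 140 bases, which is not a multiple of 3. The second, at chr16:23112351-23112457, has 107 bases and is in 2 transcripts. The annotated reading frame of the transcript shown meets a stop codon at bases 8 to 10 of that exon. In the second line the 80 bases of the exon before it (chr16:23111817-23111896) are joined to its first 10 bases (ending at 23112360), with the stop codon in capitals. Both sequences are from the GENCODE M21 transcripts, in the direction of transcription.
Eif4a2 coding cassette exon: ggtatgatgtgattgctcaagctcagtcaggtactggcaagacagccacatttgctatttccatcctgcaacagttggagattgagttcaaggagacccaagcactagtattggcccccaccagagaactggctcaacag
Eif4a2 exon junction with early stop: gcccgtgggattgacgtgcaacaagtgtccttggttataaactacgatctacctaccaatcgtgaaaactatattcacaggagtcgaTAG

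Across the members, 1 of 59 events passed in the comparison of Raver2 knockdown with Ctr (adjusted p under 0.05 by limma), against 2.43% of all 4658 events, and 1 of 59 for Setd2 knockdown against Ctr, against 2.23% of all events. Both were event 4 of Eif4a2. For Raver2 against Setd2 knockdown 0 of 59 passed with limma, against 0.73% of all events, and 5 had an unadjusted p under 0.05 (8.47%, against 6.12% of all events). The share of member events called was thus near that of all events. At an unadjusted p under 0.05 the members numbered 8 (13.6%, against 12% of all events) for Raver2 knockdown against Ctr and 7 (11.9%, against 11.6%) for Setd2 knockdown against Ctr. Events 1, 3 and 4 of Eif4a2 were among them in both comparisons, so a single gene held a large part of these counts. Apart from event 4 of Eif4a2, the adjusted p of the other 58 events began at 0.202 and 0.211 in these comparisons.

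The groups did not overlap in 22 of 59 member events (37.3%, against 44% of all events) for Raver2 knockdown against Ctr, in 19 (32.2%, against 42.5%) for Setd2 knockdown against Ctr, and in 28 (47.5%, against 33.8%) for Raver2 against Setd2 knockdown. These counts include gaps far smaller than 0.01 at the ends of the scale. The median change over the 59 events was below 0.01 in size in each comparison, as it was over all events. The median absolute change was 0.0216 for Raver2 knockdown against Ctr and 0.0221 for Setd2 knockdown against Ctr, while over all events it was 0.0423 and 0.0412. For Raver2 against Setd2 knockdown it was 0.0220 in the members, a similar size, and 0.0261 over all events. Inclusion stayed within a range of 0.1 over all 6 libraries in 33 of the 59 member events (55.9%), against 39.9% of all events.

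**Figure D2:**
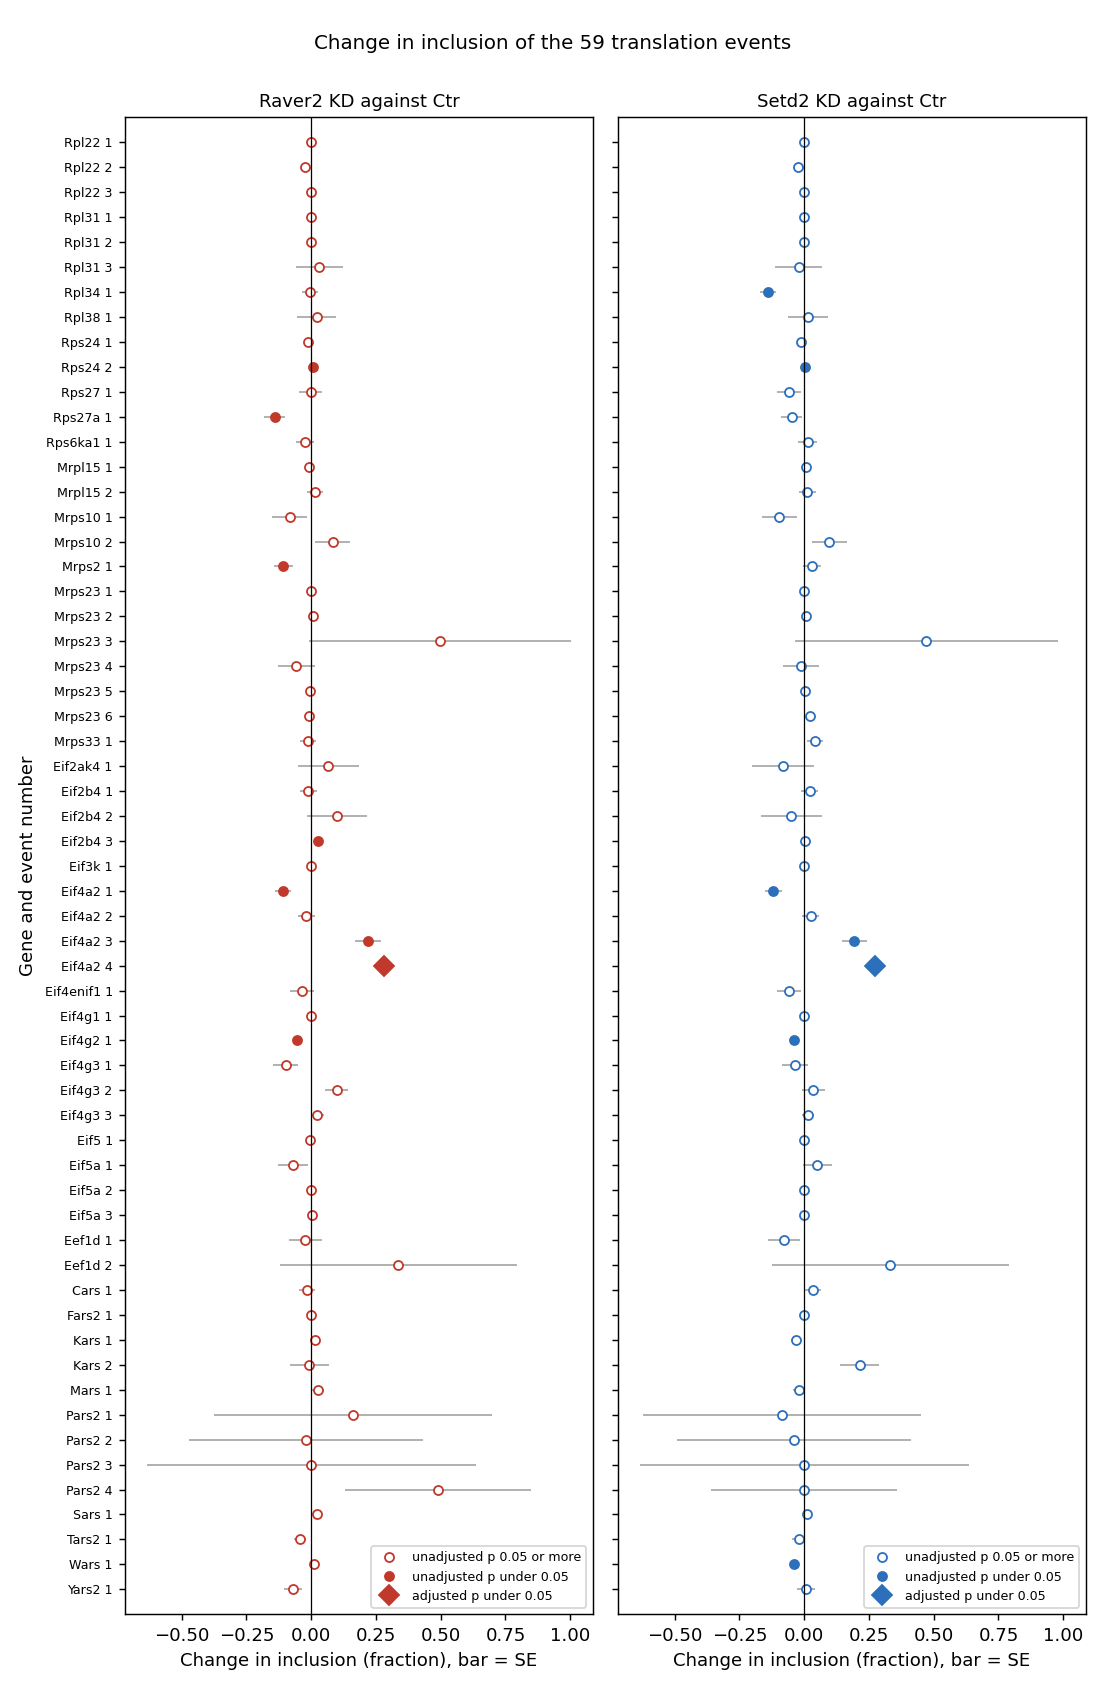
Change in inclusion (horizontal axis, difference of group mean fractions, with its SE from limma as a bar) of each of the 59 events for Raver2 knockdown against Ctr (left) and Setd2 knockdown against Ctr (right), with genes grouped by role down the page. Filled diamonds mark the single event with an adjusted p under 0.05 in each panel, Eif4a2 event 4, and filled circles the events with an unadjusted p under 0.05 only.

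The eIF4G scaffold genes of initiation held 5 events, and none passed in any comparison (limma, adjusted p under 0.05). Eif4g2 encodes a relative of eIF4G that supports initiation without the cap-binding protein (chr7:111067750-111083030, minus strand). Its event was included at 0.853 and 0.846 under Raver2 knockdown and 0.851 and 0.874 under Setd2 knockdown, against 0.908 and 0.898 in Ctr. All knockdown libraries were below both Ctr libraries, but the changes of -0.0535 ± 0.0112 and -0.0405 ± 0.0112 did not pass (SE; limma, adjusted p = 0.202 and 0.305). The annotation holds 1 cassette exon in Eif4g2, a coding exon of 114 bases on the minus strand at chr7:111076280-111076393, shown here as its only annotated cassette exon. The listed event is not tied to it, and 6 of the 14 annotated transcripts retain an intron.
Eif4g2 coding cassette exon: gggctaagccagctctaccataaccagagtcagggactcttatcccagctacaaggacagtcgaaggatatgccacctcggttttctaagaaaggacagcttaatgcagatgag

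Eif4g3, another eIF4G scaffold gene, had events 1 and 2 that summed to 1 in every library (within 0.001), so they are a single measurement. Event 2 was 0.838 and 0.800 under Raver2 knockdown and 0.752 and 0.761 under Setd2 knockdown, against 0.664 and 0.778 in Ctr. Both Raver2 libraries were above the other 4, with a mean of 0.819 against 0.721 in Ctr, and the Ctr libraries enclosed those of Setd2 knockdown. Event 3 of Eif4g3 ranged from 0.149 to 0.203 over the 6 libraries. The event of Eif4g1, the main scaffold of the cap-binding complex, was below 0.01 in all 6 libraries.

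Eif2b4 encodes a subunit of the exchange factor that recharges eIF2 with GTP. Its event 3 was 0.126 and 0.130 under Raver2 knockdown and 0.09996 and 0.110 under Setd2 knockdown, against 0.106 and 0.101 in Ctr. The difference was 0.0243 ± 0.00634 for Raver2 knockdown against Ctr (SE; limma, adjusted p = 0.286) and 0.0232 ± 0.00634 for Raver2 against Setd2 knockdown (adjusted p = 0.623), so it did not pass in either. Event 2 of Eif2b4 was spread within groups, at 0.695 and 0.848 under Raver2 knockdown, 0.757 and 0.486 under Setd2 knockdown, against 0.648 and 0.696 in Ctr. Event 1 of Eif2b4 ranged from 0.0262 to 0.116.

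Eif5 encodes the factor that makes eIF2 hydrolyse its GTP at the start codon, and its event stayed between 0.973 and 0.985. Eif3k, a subunit of the large eIF3 scaffold, had an event above 0.99 in every library. Eif5a encodes a factor that relieves stalled ribosomes. Its event 1 was 0.184 and 0.0968 under Raver2 knockdown and 0.311 and 0.213 under Setd2 knockdown, against 0.247 and 0.175 in Ctr, and the groups overlapped with Ctr. Events 2 and 3 of Eif5a were at most 0.0169 in any library.

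The event of the kinase gene Eif2ak4 was above 0.99 in both Raver2 knockdown libraries, at 0.706 in Setd2 sh2 and above 0.99 in Setd2 sh1, and at 0.870 in Ctr 2 and above 0.99 in Ctr 1. Eif4enif1 had fractions of 0.289 and 0.358 under Raver2 knockdown and 0.312 and 0.290 under Setd2 knockdown, against 0.358 and 0.364 in Ctr. Neither gene passed the test in any comparison (limma, adjusted p under 0.05).

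Eef1d was the sole member with an Eef symbol. It encodes a subunit of the exchange factor that recharges eEF1A with GTP (chr15:75894205-75909556, minus strand). Its event 2 separated the sh1 library from the sh2 library of both targets. Since each hairpin was read in a single library, hairpin and library cannot be told apart. Inclusion was 0.0799 with Raver2 sh1 and 0.982 with Raver2 sh2, and 0.0994 with Setd2 sh1 and 0.957 with Setd2 sh2, against 0.207 and 0.182 in Ctr. The sh1 libraries thus lay below both Ctr libraries and the sh2 libraries far above them, and the group means of 0.531 and 0.528 describe no library. Event 1 of Eef1d was 0.672 with Raver2 sh1 and 0.608 with Raver2 sh2, and 0.657 with Setd2 sh1 and 0.511 with Setd2 sh2, against 0.660 and 0.664 in Ctr. Both sh2 libraries were below the other 4, the opposite side from event 2 and with a smaller gap. The annotation holds 4 cassette exons in Eef1d, of which those of 57 bases (chr15:75897226-75897282) and 72 bases (chr15:75900691-75900762) are wholly coding and keep the reading frame. Both are shown as annotated exons of the member with the widest gap between libraries of a group outside the mitochondrial genes, with no link to the numbered events.
Eef1d coding cassette exon of 57 bases: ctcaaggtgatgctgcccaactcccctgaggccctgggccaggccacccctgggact
Eef1d coding cassette exon of 72 bases: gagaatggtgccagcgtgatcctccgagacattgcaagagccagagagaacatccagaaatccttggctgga

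Genes for proteins of the large cytosolic ribosomal subunit held 8 events, and none passed in any comparison (limma, adjusted p under 0.05), with 1 at an unadjusted p under 0.05. Rpl34 (chr3:130726831-130730398, minus strand) had an event with 0.676 and 0.688 under Raver2 knockdown and 0.544 and 0.553 under Setd2 knockdown, against 0.713 and 0.663 in Ctr. Both Setd2 libraries were below all the others, while the Raver2 libraries lay among those of Ctr. The difference of -0.140 ± 0.0308 for Setd2 knockdown against Ctr did not pass (SE; limma, adjusted p = 0.211), nor did the difference of 0.134 ± 0.0308 for Raver2 against Setd2 knockdown (adjusted p = 0.524).

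Rpl38, whose product is known from mouse mutants to affect translation of Hox messenger RNAs, had fractions of 0.436 and 0.523 under Raver2 knockdown and 0.469 and 0.475 under Setd2 knockdown, against 0.529 and 0.386 in Ctr, whose libraries enclosed all the others. Event 3 of Rpl31 ranged from 0.231 to 0.407 over the 6 libraries, and Ctr alone covered 0.245 to 0.407. Events 1 and 2 of Rpl31 were above 0.99 throughout. The 3 events of Rpl22 were below 0.01 in every library except event 2 in Ctr 2, at 0.0466.

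Among proteins of the small cytosolic subunit, Rps27a encodes a ribosomal protein made as a fusion with ubiquitin (chr11:29545846-29548109, minus strand). Its event was included at 0.694 in both Raver2 knockdown libraries and at 0.834 and 0.740 under Setd2 knockdown, against 0.810 and 0.862 in Ctr. The Raver2 libraries were the lowest, yet the change of -0.142 ± 0.0410 for Raver2 knockdown against Ctr did not pass (SE; limma, adjusted p = 0.337).

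Rps24, known for very short alternative exons at the end of its coding region, had fractions near the bottom of the scale. Its event 2 was 0.00734 and 0.00695 under Raver2 knockdown and 0.00678 and 0.00402 under Setd2 knockdown, against below 0.001 and 0.00157 in Ctr. Every knockdown library was above both Ctr libraries by less than 0.01, with changes of 0.00634 ± 0.00137 and 0.00460 ± 0.00137 that did not pass (SE; limma, adjusted p = 0.209 and 0.344). Event 1 of Rps24 was 0.0244 in Ctr 1 and below 0.01 in the other 5 libraries. Rps27, a small-subunit protein with a zinc finger, had 0.9754 and 0.995 under Raver2 knockdown and 0.868 and 0.988 under Setd2 knockdown, against 0.993 and 0.980 in Ctr, so only Setd2 sh1 stood apart. The event of the kinase gene Rps6ka1 ranged from 0.891 to 0.977.

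Mitochondrial ribosomal protein genes were represented on the large subunit by Mrpl15 alone (chr1:4773206-4785739, minus strand). Event 2 of Mrpl15 was 0.653 and 0.650 under Raver2 knockdown and 0.622 and 0.675 under Setd2 knockdown, against 0.649 and 0.623 in Ctr. Its event 1 was at least 0.978 in all libraries. For event 2 the difference from Ctr was 0.0151 ± 0.0321 for Raver2 knockdown, with a 95% interval from -0.0768 to 0.107, and 0.0124 ± 0.0321 for Setd2 knockdown, with an interval from -0.0795 to 0.104 (SE; limma, adjusted p = 0.972 and 0.9905). For event 1 the differences were -0.00780 ± 0.00788 and 0.00525 ± 0.00788 (adjusted p = 0.792 and 0.881).

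On the mitochondrial small subunit, the event of Mrps2 was 0.900 and 0.824 under Raver2 knockdown and above 0.99 in both Setd2 knockdown libraries, against above 0.99 and 0.938 in Ctr. The Raver2 libraries were the lowest of the 6. The differences of -0.107 ± 0.0360 for Raver2 knockdown against Ctr and of -0.138 ± 0.0360 for Raver2 against Setd2 knockdown did not pass (SE; limma, adjusted p = 0.404 and 0.605). Events 1 and 2 of Mrps10 summed to 1 in every library. Event 2 of Mrps10 was 0.177 and 0.0137 under Raver2 knockdown and 0.151 and 0.0659 under Setd2 knockdown, against 0.0241 and below 0.01 in Ctr. Mrps33 ranged from 0.859 to 0.954, with its highest value in Setd2 sh1.

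Mrps23 had 6 events. Event 3 separated the sh1 and sh2 libraries in the direction opposite to event 2 of Eef1d. It was above 0.99 in Raver2 sh1 and 0.950 in Setd2 sh1. In Raver2 sh2, Setd2 sh2 and both Ctr libraries it was below 0.01. Events 1 and 2 were at least 0.988 in all libraries, event 5 was at most 0.0160, event 6 ranged from 0.0404 to 0.0871, and event 4 ranged from below 0.01 to 0.164.

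**Figure D3:**
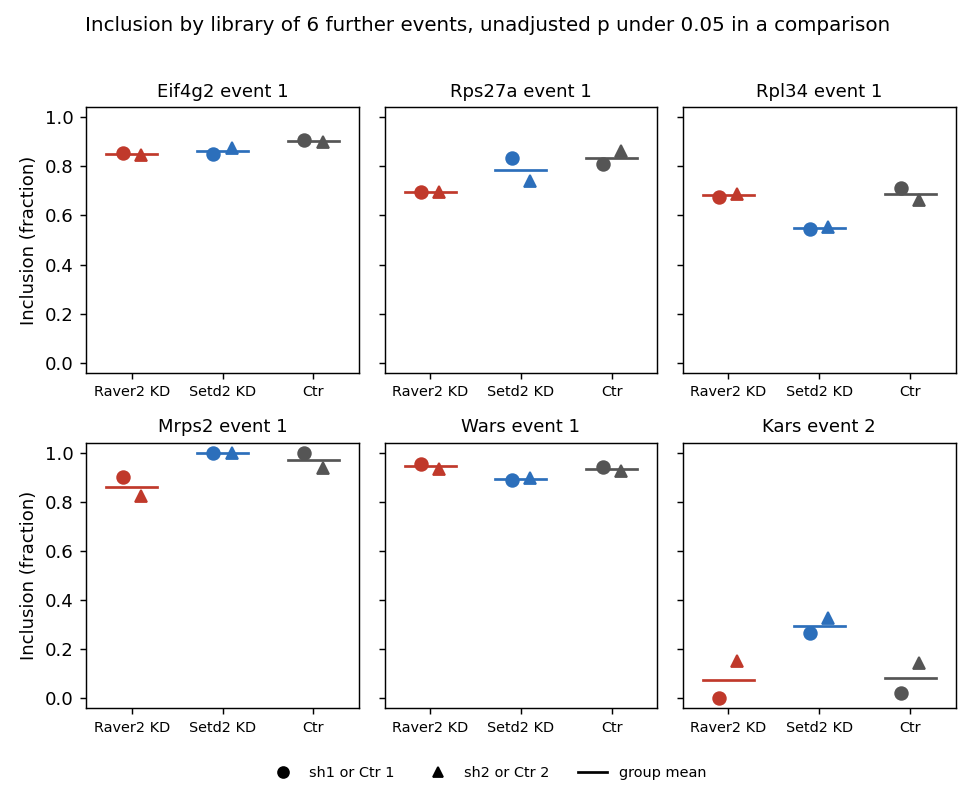
Inclusion fraction (vertical axis, 0 to 1) by library of 6 further events with an unadjusted p under 0.05 in at least 1 comparison; circles are sh1 or Ctr 1, triangles sh2 or Ctr 2, lines the means of 2 libraries. Rpl34 is lowest under Setd2 knockdown (0.544 and 0.553) and Rps27a lowest under Raver2 knockdown (0.694 in both libraries); none passed after adjustment.

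The tRNA synthetases, which charge tRNAs with their amino acids, were listed for the cytosol (Cars, Kars, Mars, Sars and Wars) and for mitochondria (Fars2, Pars2, Tars2 and Yars2); Kars products serve both compartments. Wars, the tryptophan enzyme induced by interferon, was included at 0.956 and 0.934 under Raver2 knockdown and 0.890 and 0.898 under Setd2 knockdown, against 0.944 and 0.927 in Ctr. Both Setd2 libraries were below the other 4, but neither the difference of -0.0413 ± 0.0112 for Setd2 knockdown against Ctr nor that of 0.0509 ± 0.0112 for Raver2 against Setd2 knockdown passed (SE; limma, adjusted p = 0.295 and 0.495). Event 2 of Kars, the lysine enzyme, was below 0.01 and 0.151 under Raver2 knockdown and 0.265 and 0.328 under Setd2 knockdown, against 0.0215 and 0.144 in Ctr. The Setd2 libraries were the highest, and the difference of -0.221 ± 0.0754 for Raver2 against Setd2 knockdown did not pass (SE; limma, adjusted p = 0.800).

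Yars2, the mitochondrial tyrosine enzyme, had 0.590 and 0.621 under Raver2 knockdown and 0.654 and 0.714 under Setd2 knockdown, against 0.664 and 0.690 in Ctr, with the Raver2 libraries lowest. Tars2 ranged from 0.911 to 0.983, Sars from 0.0440 to 0.0798, Cars from 0.128 to 0.218, Mars from 0.0111 to 0.0834 and event 1 of Kars from 0.108 to 0.175. Fars2 was above 0.99 in every library.

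Pars2, the mitochondrial proline enzyme (chr4:106651069-106655282), had 4 events that swung across the scale within groups. Event 3 was above 0.99 in Raver2 sh2, Setd2 sh1 and Ctr 1 and below 0.01 in Raver2 sh1, Setd2 sh2 and Ctr 2. Event 2 was above 0.99 in the same libraries, and it was 0.287 in Raver2 sh1, 0.251 in Setd2 sh2 and 0.331 in Ctr 2. Event 1 was placed in the reverse order, with 0.999 in Raver2 sh1, 0.826 in Setd2 sh2 and above 0.99 in Ctr 2, while Raver2 sh2 had 0.325 and the other libraries were below 0.01. Event 4 was 0.985 in Raver2 sh2 and below 0.01 elsewhere.

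Such swings were limited to 6 events of 3 genes. The libraries of a group differed by more than 0.5 in 6 member events under Raver2 knockdown (10.2%, against 6.40% of all events), 5 under Setd2 knockdown (8.47%, against 7.41%) and 3 in Ctr (5.08%, against 6.72%), all of them in Eef1d, Mrps23 and Pars2. They differed by more than 0.1 in 10 events under Raver2 knockdown (16.9%, against 22.9% of all events), 11 under Setd2 knockdown (18.6%, against 25.5%) and 9 in Ctr (15.3%, against 27.7%). Read counts behind these values are not known, and at 27 of the 59 events (45.8%, against 57.1% of all events) at least 1 library lay below 0.01 or above 0.99. The parts of sampling depth and of matching events by their order within the gene in these swings were not tested.

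**Figure D4:**
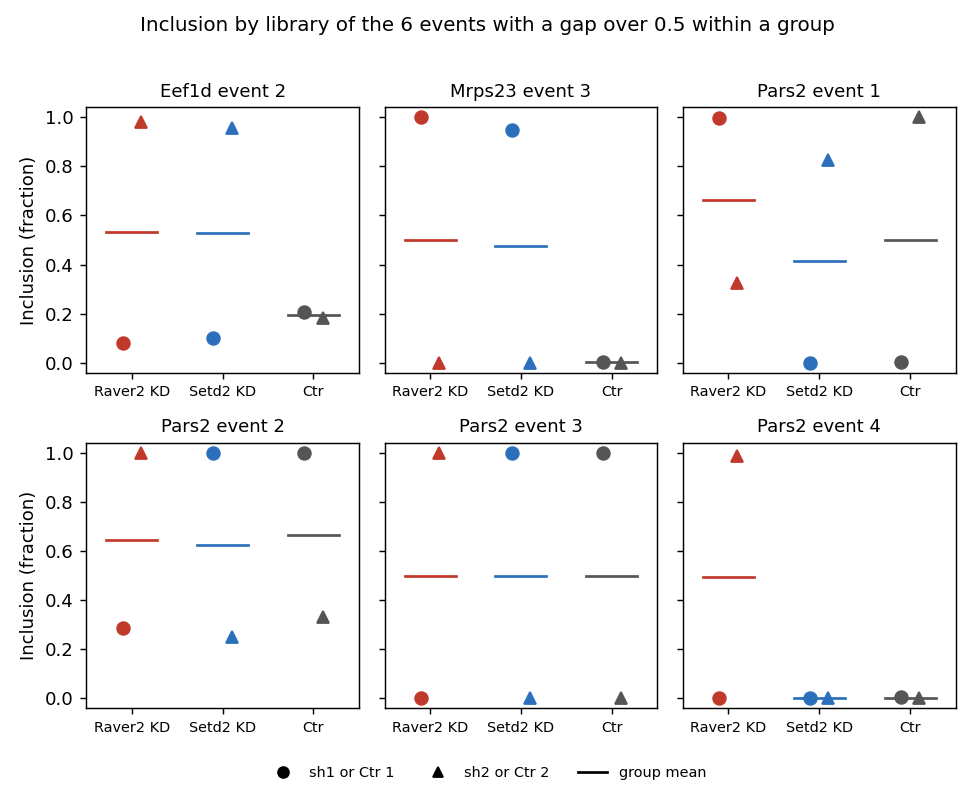
Inclusion fraction (vertical axis, 0 to 1) by library of the 6 events whose libraries differed by more than 0.5 within a group; circles are sh1 or Ctr 1, triangles sh2 or Ctr 2, lines the means of 2 libraries. Eef1d event 2 is high in both sh2 libraries (0.982 and 0.957) and Mrps23 event 3 in both sh1 libraries, while Pars2 events 1 to 3 also split the Ctr libraries.

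**Figure D5:**
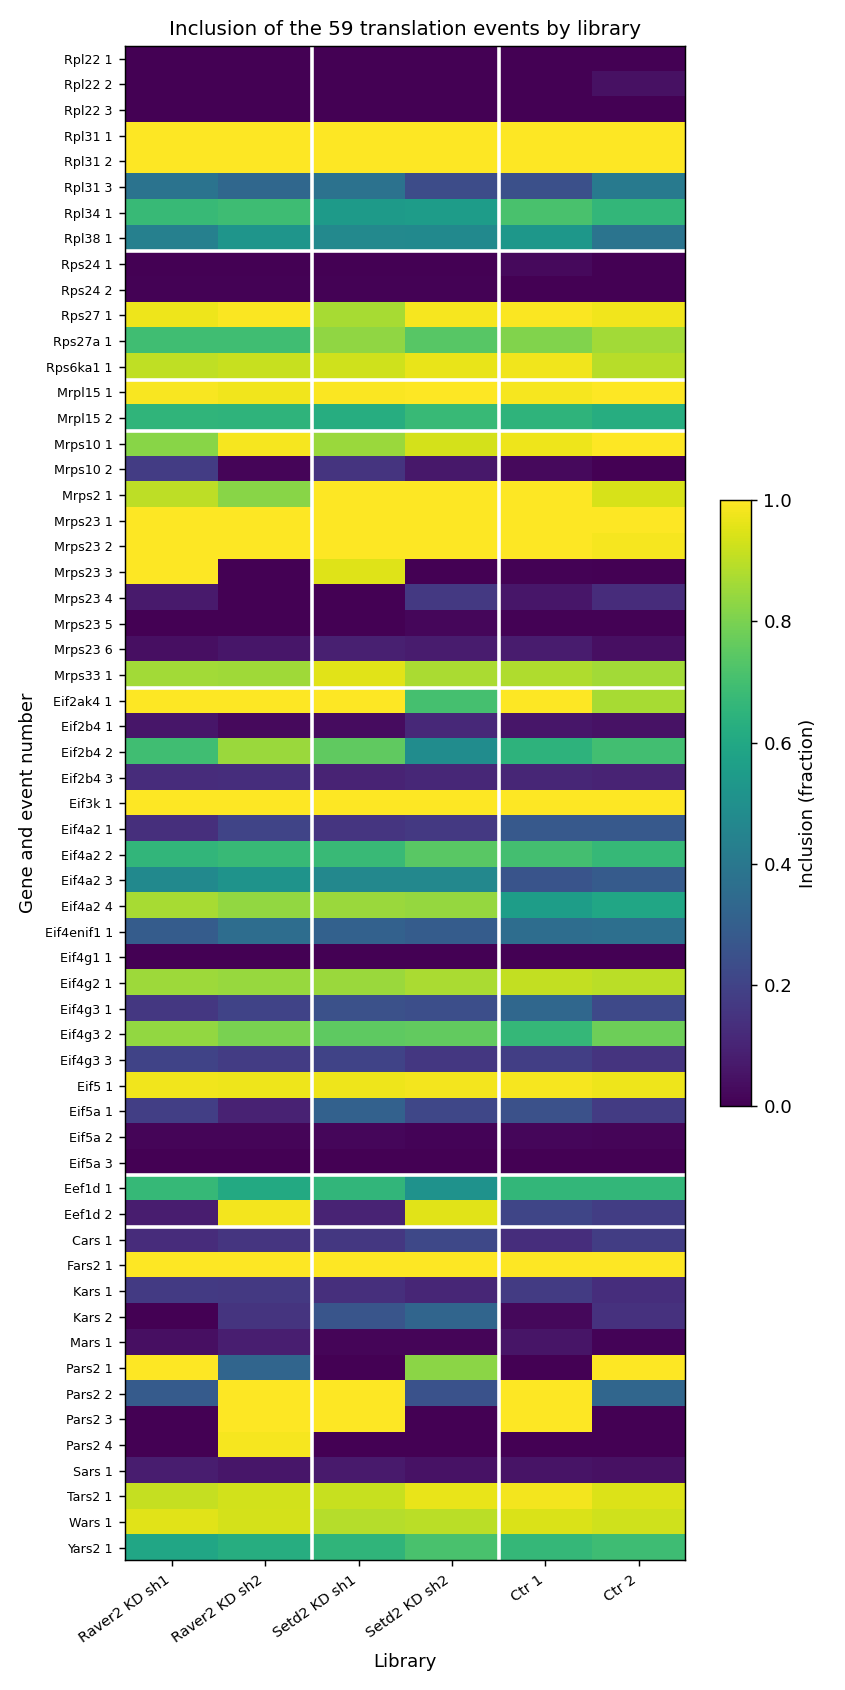
Inclusion fraction (colour, 0 to 1) of the 59 member events (rows, by gene and event number, in blocks by role) in the 6 libraries (columns: Raver2 knockdown, Setd2 knockdown, Ctr). Most rows keep 1 colour across the columns, with 33 events within a range of 0.1, and Pars2, Eef1d event 2 and Mrps23 event 3 show the widest changes between libraries of a group.

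Genes of the pathway outside the spelling rule were counted from lists, chosen with earlier results of these data known. Of 28 regulators in the mTOR pathway and of initiation kinases, 12 were listed with 26 events. For Raver2 knockdown against Ctr 1 of the 26 passed (limma), against 2.43% of all events. For Setd2 knockdown against Ctr 0 passed, against 2.23%, and between the knockdowns 0 passed, against 0.73% (limma). At an unadjusted p under 0.05 (limma) there were 7 in each comparison with Ctr (26.9%, against 12% and 11.6% of all events). Between the knockdowns there were 0, against 6.12%. Few genes held these 7, the same in both comparisons. They were events 1 to 4 of Flcn, a lysosomal regulator of mTOR signalling, events 1 and 2 of Tsc2 and event 2 of Mknk1. Events 1, 2 and 3 of Flcn are a single measurement, since events 1 and 3 had the same values and event 2 their complement. Among the listed events outside these 7, events 2 and 3 of Depdc5 had the same values, as did events 1 and 2 of Pdcd4. The 26.9% thus counts some measurements more than once, both among the 7 and among the 26. The event that passed was event 2 of Tsc2, a brake on mTOR signalling, with 0.0649 and 0.0397 under Raver2 knockdown and 0.0691 and 0.0833 under Setd2 knockdown, against 0.157 and 0.161 in Ctr. Inclusion of this event was lower under Raver2 knockdown, with a change of -0.106 ± 0.0113 (SE, limma, adjusted p = 0.0428). That call was lost on the arcsine and logit scales (limma, adjusted p = 0.114 and 0.158), without the variance trend (0.0549) and with robust variances (0.0566). It was lost too with only the 4 libraries compared (0.115) and among events from 0.01 to 0.99 (0.0682). The change of -0.0824 ± 0.0113 for Setd2 knockdown against Ctr had the same sign and did not pass (SE, limma, adjusted p = 0.0825). Nor did the difference of -0.0239 ± 0.0113 for Raver2 against Setd2 knockdown (adjusted p = 0.964). The call for Raver2 knockdown was lost without Ctr 1, Ctr 2, Raver2 sh2, Setd2 sh1 or Setd2 sh2. Other translation factors (9 of 56 genes, 18 events) had 0 events that passed in any comparison (limma). So did ribosome biogenesis factors (7 of 84 genes, 7 events) and genes of nonsense-mediated decay and the exon junction (4 of 20 genes, 6 events). At an unadjusted p under 0.05 (limma), other translation factors had 3 events for Setd2 knockdown against Ctr (16.7%, against 11.6% of all events). Of these, events 1 and 3 of Mtif2 had the same values and are a single measurement. In the other cases each list had 0 or 1 such event, at most 16.7% of its events. The shares of all events were 12% for Raver2 knockdown against Ctr and 6.12% between the knockdowns.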

How the data were processed

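RNA from 6 libraries of sorted mouse mTECs was amplified from low input and sequenced, per the labels' protocols. The deposited values are fractions, the inclusion frequency of each alternative splicing event; the submitters' processing notes name Trimmomatic 0.39, TopHat2, Cufflinks and the build mm10, with no role or order, and how inclusion was computed, and any coverage filter, is not given in the sources used here. Depth is therefore unknown, and no counting interval is given.

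Events were joined by gene symbol and order within the gene, for 2685 genes with equal event numbers in all tables. In the 39 member events of genes with several events, libraries correlated at 0.622 to 0.920 in the same order and at 0.0603 to 0.448 with the order shifted by 1. These correlations pool the events and do not check the match of any single event. No low-value filter was used, so all 33 genes and 59 events were tested. limma 3.58.1 (R 4.3.3) was fitted to the fractions of 4658 events with a mean per group over 6 libraries and a variance trend. Tests were two-sided, with Benjamini-Hochberg adjustment over all events. The code was also run on simulated fractions with normal noise and shifts in mid-range events only. That run does not check the fit at the ends of the scale or for wide gaps within a group. Tables were read with Python 3.11.15 and pandas 2.3.3. Positions and exons came from GENCODE M21 (mm10), which matched all 33 symbols.

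Members and lists were chosen with earlier results of these data known. Eif4a2 and Mrpl15 were to be named, with each called event, up to 3 genes per role class and comparison with Ctr by absolute moderated t, the 2 genes of a class with most events and the 3 widest gaps within a group; the remaining members are named to account for all. Changes are given with a test for Eif4a2 and Mrpl15 against Ctr, and for other members at an unadjusted p under 0.05. Alternatives were the scale, the variance model, the events and libraries fitted, and leaving out each library.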

Additional observations from a re-analysis of the deposited data

How the results depend on the processing

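With all 6 libraries and the fractions as deposited, 1 member event was called for Raver2 knockdown against Ctr, 1 for Setd2 knockdown against Ctr and 0 between the knockdowns. On the arcsine and logit scales, with robust variances and without repeated events these counts were the same. Without the variance trend 2 were called for Raver2 knockdown, Eif4a2 events 3 and 4 (adjusted p = 0.0350 for event 3, limma). With only the 4 libraries compared the counts were 0 and 0 (limma; smallest adjusted p 0.0948 and 0.0944, 6 member events with an unadjusted p under 0.05 in each), and with genes of 1 event, which leaves out Eif4a2, 0 and 0 (limma; 3 unadjusted in each). Among events from 0.01 to 0.99, 1 and 0 were called (limma, adjusted p = 0.0406 and 0.0533 for Eif4a2 event 4; 5 unadjusted in each). Leaving out each library gave counts from 0 to 2 in both comparisons with Ctr, and 0 to 1 between the knockdowns. The extra calls were Rpl22 event 2 without Ctr 1, Rps24 event 1 without Ctr 2 and Pars2 event 4 without Raver2 sh1, each of which has 1 library apart from the rest. Over its 13 alternatives the adjusted p of Eif4a2 event 4 (limma) ran from 0.0212 to 0.0948 for Raver2 knockdown and from 0.0263 to 0.117 for Setd2 knockdown, with 8 and 7 passing. Tsc2 event 2 passed only without repeated events (0.0436) and without Raver2 sh1 (0.0446), with 0.0549 to 0.158 otherwise. Among the recomputed changes 8 turned sign, all in comparisons in which the event had not passed. Over the fits without a library, Mrpl15 event 1 ran from -0.0156 to 1.13e-05 for Raver2 knockdown against Ctr (the sign turned without Ctr 2) and from -0.00256 (without Ctr 1) to 0.0131 for Setd2 knockdown against Ctr. Mrpl15 event 2 ran from -0.0144 (without Setd2 sh2, and -0.00104 without Ctr 2) to 0.0391 for Setd2 knockdown against Ctr, and from -0.0241 (without Setd2 sh1) to 0.0294 for Raver2 against Setd2. Eif4a2 event 2 ran from -0.00849 (without Setd2 sh2) to 0.0575 for Setd2 knockdown against Ctr. For Raver2 against Setd2, Eif4a2 event 4 ran from -0.00877 (without Raver2 sh1) to 0.0255 and event 1 from -0.0272 (without Raver2 sh2) to 0.0459.

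Over all events, main counts of 113 and 104 for Raver2 and Setd2 knockdown against Ctr became 75 and 0 with the 4 libraries compared (limma; 611 and 554 unadjusted), 10 and 6 from 0.01 to 0.99, 38 and 37 in genes with 1 event, and 74 to 291 and 48 to 279 without a library. Between the knockdowns the count of 34 became 0 from 0.01 to 0.99 (limma; 107 unadjusted), 12 in genes with 1 event, 0 with the block (265 unadjusted) and 46 to 119 without a library. The hairpin numbers name different hairpins. Deviations of same-numbered libraries correlated at 0.0146 across all events and at -0.0665 across the member events. These correlations pool the events and do not check pairing at any single event. The widely split events of Eef1d and Mrps23 followed the hairpin number in both targets, while those of Pars2 did not. Whether same-numbered libraries shared a processing step was not tested. With the hairpin number as a replicate block, 0 member events were called between the knockdowns (limma). The causes of these differences were not tested.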

Other observations

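Eif4e1b, a germ cell relative of the cap-binding protein gene, met the spelling rule but was listed in 2 of the 6 libraries, Raver2 sh1 with 6 events and Ctr 2 with 7 events, and so entered no comparison. Its fractions spanned nearly the whole scale in both: 2 events were below 0.01 and 2 above 0.99 in Raver2 sh1, and 2 were below 0.01 and 3 above 0.99 in Ctr 2.

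Across the 59 member events, the fractions of the 2 libraries of a group correlated at 0.751 under Raver2 knockdown, 0.779 under Setd2 knockdown and 0.867 in Ctr (Pearson, a description over events that share genes and libraries), where all 4658 events gave 0.809, 0.798 and 0.796.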
